A study of Mus musculus with 12 samples.

Results

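The miRNAs miR-143 and miR-145 are made from neighbouring hairpins. RefSeq's annotation of GRCm38.p6 lists Mir143 and Mir145a with the long non-coding RNA Carmn overlapping them. The pair was chosen by name, as the array entries mmu-miR-143 and mmu-miR-145, which are 2 of the 611 mouse miRNA names on the array. As background, each hairpin is cut first by Drosha and then by Dicer, and the mature strand guides Argonaute to complementary sites in mRNAs. Both miRNAs come from 1 primary transcript that the transcription factor SRF and its partner myocardin drive in smooth muscle, where the pair is known for supporting the contractile state. In tissue they are found mainly in smooth muscle and other mesenchymal cells, and p53 is known to aid the processing of both in human cells.

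The cells were embryonic fibroblasts of C57BL/6 mice that lack the stress-response transcription factor ATF4 (KO) or carry it (WT). Tunicamycin blocks N-linked glycosylation and so loads the endoplasmic reticulum with misfolded protein. The 6 groups were KO untreated, KO with 2 ug/mL tunicamycin for 12 h, KO with the same dose for 24 h, and the same 3 stages in WT, with 2 arrays each, labelled as independent experiments. The labels do not say how many embryos or lines the cells came from, so a p-value here speaks of the spread between arrays, which may be technical. Each array read total RNA of a culture, in which fewer expressing cells and less miRNA per cell cannot be told apart.

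Between 92 and 164 mouse miRNAs stood well above background on an array, and 405 of 611 did so on no array. The 75th percentile of signal used for scaling ran from 203.5 to 791.2 arbitrary units, both on KO arrays. The 4 untreated arrays lay on 1 slide and the 8 tunicamycin arrays on the other, so the slide and tunicamycin cannot be told apart. WT arrays lay in row 1 and KO arrays in row 2 of each slide, so genotype and row cannot be told apart either. No probe measures Atf4 mRNA, so the genotype labels have no check here. All 6 miRNAs listed as markers of fibroblasts and mesenchyme were well above background on all 12 arrays. None of 7 blood, 6 epithelial and 3 neural markers was so on any array, while the endothelial miR-126-3p was on 1 array and the striated-muscle miR-206 on 2.

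miR-145, the smooth-muscle miRNA known for targets such as Klf4, gave no signal above background in any group. Its 2 probes, A_54_P2314 and A_54_P2315, had 240 spots over the 12 arrays. None of those spots was well above background, 9 were positive and significant by the scanner software's own test, and 6 were outliers. The processed signal, from which the software has already subtracted background, was below 0 for 20 of the 24 probe means. Zero is not the blank level on this scale, since negative control spots had a median of 2.50 to 4.64 units, depending on the array.

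The summed signal of the 2 miR-145 probes was 1.35 and -2.02 in untreated KO cells. It was -4.66 and -4.70 in KO cells at 12 h and -6.30 and -7.71 in KO cells at 24 h. In WT cells it was -0.56 and -5.06 untreated, -4.21 and -8.23 at 12 h, and -6.39 and -8.42 at 24 h. All 12 sums lay close to or below 0, and the ranges of the genotypes overlapped. The dimmest mouse probe that was well above background had 7.24 to 15.4 units, depending on the array, and the brightest miR-145 probe mean was 1.35. Against the negative control spots of the same array, 18 of the 24 probe means were below the 95% range and the other 6 within it. The level of miR-145 was therefore below what these arrays detect in all 6 groups, and no difference between groups, nor a ratio of miR-143 to miR-145, could be computed.

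**Figure D1:**
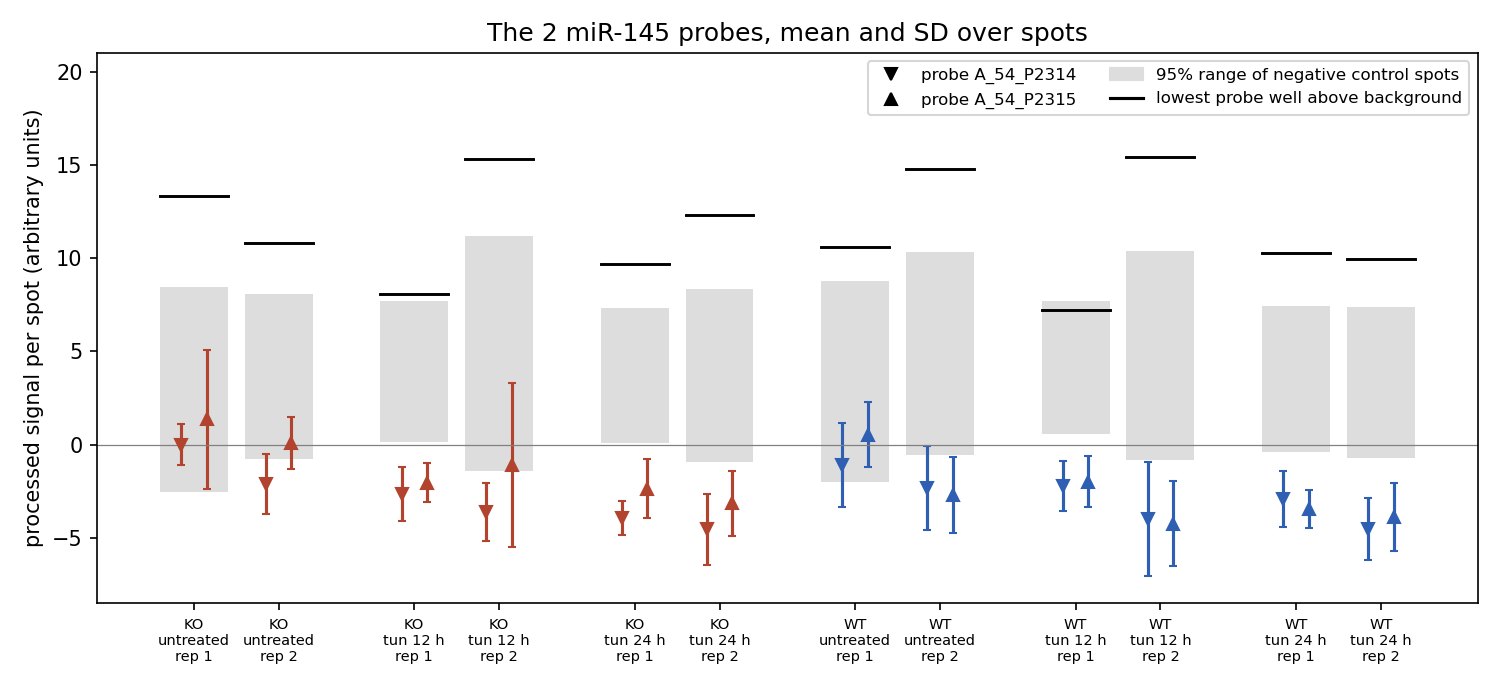
Mean processed signal per spot (arbitrary units, vertical axis) of the 2 miR-145 probes on each of the 12 arrays, KO in red and WT in blue, with bars for the SD over spots. Grey boxes are the 95% range of negative control spots and black lines the dimmest mouse probe well above background. The probe means run from -4.55 to 1.35 and all lie below the black line of their array.

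The other strand of the miR-145 hairpin, miR-145*, had 4 probes. It was likewise well above background on 0 of 240 spots, and its summed signal ran from -3.70 to 2.41. The star strand of miR-143 had no entry on the array, so no second product of that hairpin was read. The deposited value table was blank for miR-145 and for miR-145* on all 12 arrays.

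miR-143, known in smooth muscle for targets such as Elk1, was detected, but dimly. Of its 240 spots on probes A_54_P2404 and A_54_P2405, 239 were positive and significant, 155 were well above background, 11 were outliers and 0 were saturated. The miRNA as a whole was well above background on 10 of 12 arrays. The exceptions were WT at 12 h replicate 2 and WT at 24 h replicate 1. In tunicamycin-treated cells 47 of 80 miR-143 spots were well above background in KO and 29 of 80 in WT, and in untreated cells 79 of 80 were over both genotypes. Spots of 1 array are not independent, and the flag depends on the array. A_54_P2404 had 1 of 10 spots flagged at a mean of 12.4 units on KO at 12 h replicate 2. On WT at 12 h replicate 1 it had 9 of 10 flagged at 9.54 units.

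**Figure D2:**
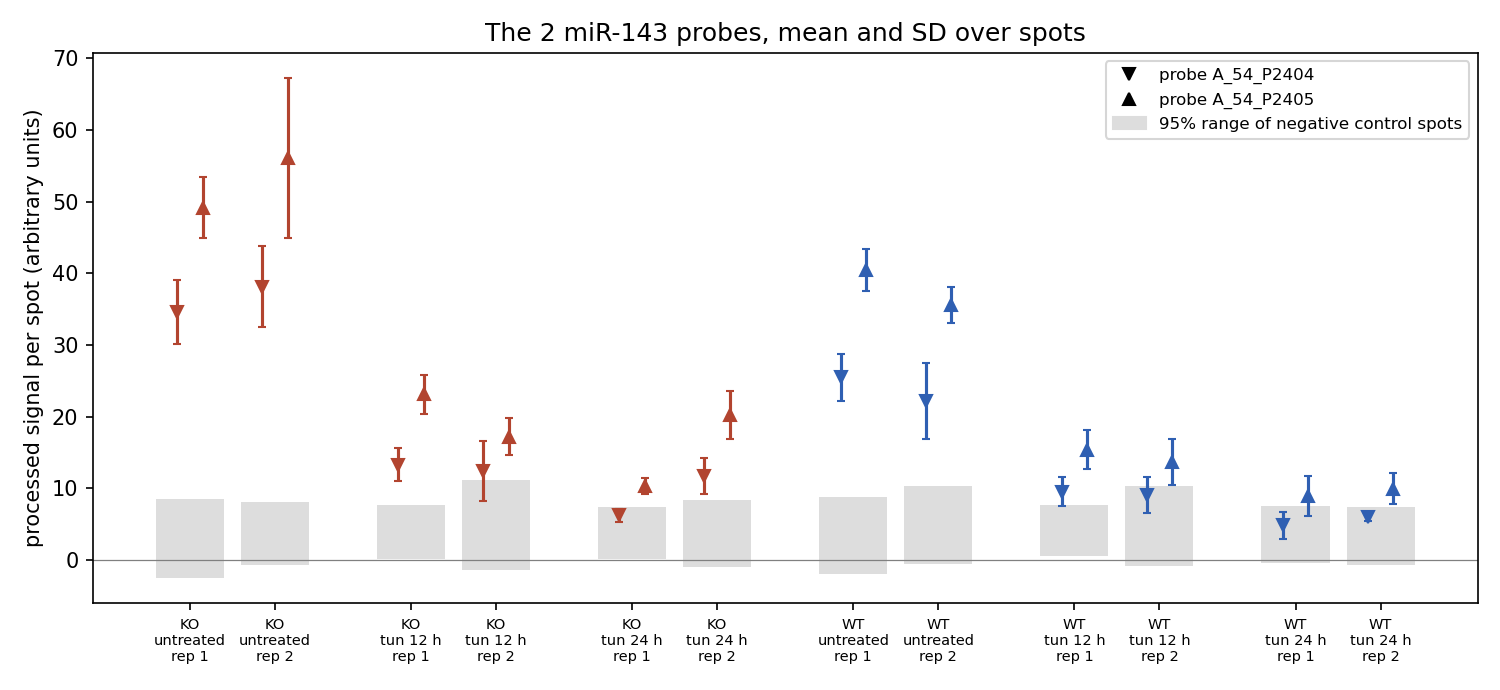
Mean processed signal per spot (arbitrary units, vertical axis) of the 2 miR-143 probes on each array, KO in red and WT in blue, with bars for the SD over spots and grey boxes for the 95% range of negative control spots. Untreated arrays are highest in both genotypes, and 4 of the 16 probe means of tunicamycin arrays fall within the grey boxes.

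The 2 miR-143 probes differed in brightness, and both read highest on the untreated arrays of each genotype. On all 12 arrays A_54_P2405 was the brighter, by 1.38 to 1.84 times. In untreated KO cells A_54_P2404 read 34.6 and 38.1 and A_54_P2405 read 49.2 and 56.1 units. In untreated WT cells they read 25.5 and 22.2, and 40.4 and 35.6 units. After 24 h of tunicamycin A_54_P2404 read 6.20 and 11.7 units in KO cells, against 4.83 and 6.03 units in WT cells. After 24 h A_54_P2405 read 10.3 and 20.2 units in KO cells, against 8.89 and 9.96 units in WT cells. The dimmer probe was within the range of negative control spots on 4 arrays, all treated: KO at 24 h replicate 1, WT at 12 h replicate 2 and both WT arrays at 24 h. The brighter probe was above that range on every array. The median of the negative control spots, 2.50 to 4.64 units, was not subtracted from the miR-143 values here or below.

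Before any scaling, the summed miR-143 signal was highest in untreated cells of either genotype. In KO cells it was 83.7 and 94.2 units untreated, 36.4 and 29.6 at 12 h, and 16.5 and 32.0 at 24 h. In WT cells it was 65.9 and 57.8 units untreated, 24.9 and 22.6 at 12 h, and 13.7 and 16.0 at 24 h. In each genotype the treated arrays all lay below the untreated ones. The KO value was above the WT value at each stage, with no overlap between the genotypes at any of the 3 stages.

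The arrays differed in overall brightness, so each sum was divided by the 75th percentile of the array and put on a log2 scale, on which 1 unit is a doubling. The scaled level of miR-143 was -3.08 and -3.07 in untreated KO cells, -3.82 and -3.82 in KO at 12 h, and -3.62 and -4.15 in KO at 24 h. It was -3.13 and -3.27 in untreated WT cells, -4.11 and -4.65 in WT at 12 h, and -4.39 and -4.47 in WT at 24 h. Untreated and treated arrays stayed apart in both genotypes. KO and WT also stayed apart at each stage, by 0.05 at the nearest arrays of the untreated cells, though the tests below passed at no stage.

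Ordered by mean, the scaled levels of miR-143 were -3.08 ± 0.0096 in untreated KO, -3.20 ± 0.096 in untreated WT, -3.82 ± 0.0025 in KO at 12 h, -3.89 ± 0.37 in KO at 24 h, -4.38 ± 0.38 in WT at 12 h and -4.43 ± 0.054 in WT at 24 h (SD, n = 2 each). Neighbours in that order were tested only where they belong to 1 of the comparisons below. Untreated KO and WT, KO at 24 h and 12 h, and WT at 24 h and 12 h did not differ beyond the threshold. The SD of 2 arrays is itself poorly known, and the spread was unequal over all tested miRNAs: the pooled SD was 0.13 and 0.15 in untreated KO and WT, and 0.51 to 1.23 in the 4 tunicamycin groups.

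**Figure D3:**
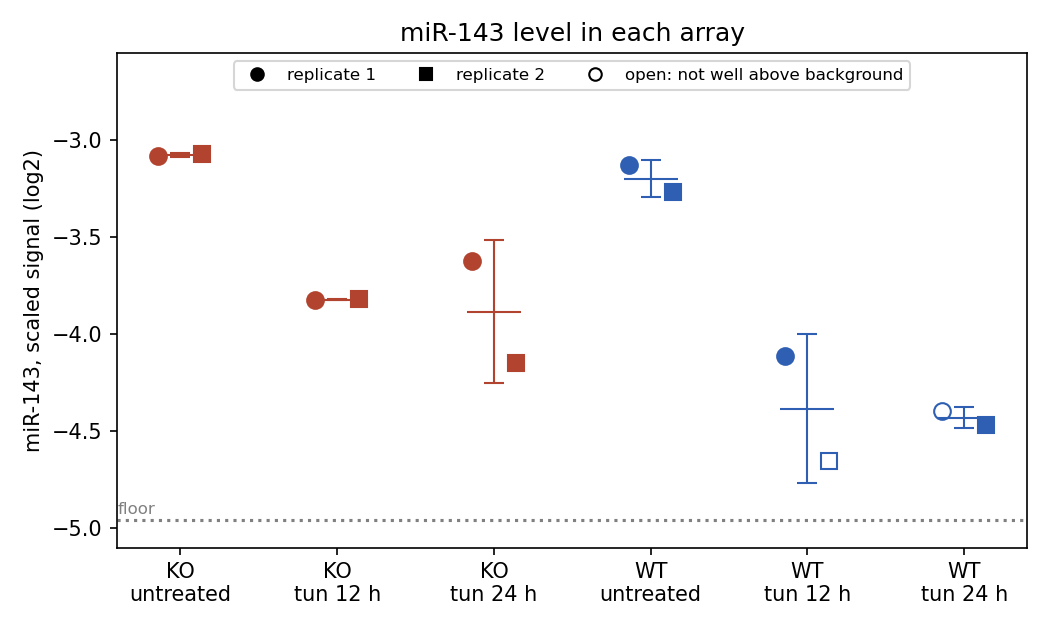
Scaled miR-143 level (log2, vertical axis) of each array in the 6 groups, KO in red and WT in blue; circles are replicate 1, squares replicate 2, open symbols arrays where miR-143 was not well above background, and bars the group mean ± SD. Treated groups lie below the untreated group of their genotype, and the dotted line is the floor of -4.96.

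The next question was whether tunicamycin changed miR-143 in cells without and with ATF4. In KO cells the 12 h difference from untreated was -0.75 ± 0.21 on the log2 scale (± standard error, n = 2 per group, as throughout), with a 95% interval from -1.25 to -0.24. Its adjusted p by limma over the 145 tested miRNAs was 0.175. The standard error comes from a spread per miRNA that all groups share, untreated and treated alike, although the groups' spreads were unequal. At 24 h the KO difference was -0.81 ± 0.21 (interval -1.31 to -0.30, limma adjusted p = 0.110). Neither passed the threshold of 0.05, although the unadjusted limma p-values were 0.0101 and 0.00683. Few miRNAs passed in those comparisons: 0.690% of those tested at 12 h and 2.07% at 24 h. In KO cells same-numbered arrays differed by -0.74 and -0.75 at 12 h and by -0.54 and -1.08 at 24 h. Untreated and treated arrays lay on different slides, across which replicate numbers did not pair them, so these pairs are arbitrary. Without any scaling between arrays the KO differences were -1.44 and -1.95 and passed, whereas with the software's total gene signal the 24 h difference was 0.58 and did not.

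In WT cells miR-143 fell by 1.19 ± 0.21 at 12 h (interval -1.69 to -0.68, limma adjusted p = 0.00697) and by 1.23 ± 0.21 at 24 h (interval -1.74 to -0.73, limma adjusted p = 0.00978). Same-numbered arrays, likewise not paired across the slides, differed by -0.98 and -1.39 at 12 h and by -1.26 and -1.20 at 24 h. Calls were common in these comparisons, since 30.3% of tested miRNAs passed as lower at 12 h and 15.2% at 24 h. By size, miR-143 ranked 14 from the lowest of 145 at 12 h and 12 from the lowest at 24 h. Without untreated WT replicate 1 the adjusted p was 0.0544 at 12 h and 0.0811 at 24 h, and without WT replicate 2 at 24 h it was 0.0790 at 24 h. Of 13 alternatives, 8 kept the call at 12 h and 7 at 24 h. Many of the 13 repeat the same values, so the count says little. Blocks for replicate number or scan date and the lack of a filter leave the estimate as it was. The sum of total probe signals is nearly the same measure, and each probe alone is a part of it. The differences no longer passed under quantile normalization (-0.93 and -1.12) or scaling to the 75th percentile over all mouse miRNAs (-0.94 and -1.01), and with no filter on dim miRNAs the 24 h adjusted p was 0.0545. With normexp background correction they were -0.14 and 0.74, and the total gene signal and the authors' deposited table, taken up further on, turned both to above 0.

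Under the scaling used above, the median over all 145 tested miRNAs also moved, up in KO cells and down in WT cells. Over 4 scalings it ran from -0.59 to 0.06 in KO cells at 12 h and from -0.77 to 0.20 at 24 h. In KO cells it was above 0 only under the scaling used above. It ran from -0.51 to -0.19 and from -0.94 to 0 in WT cells. Under the scaling used above it was 0.06 at 12 h and 0.20 at 24 h in KO cells, and -0.32 and -0.17 in WT cells. Relative to that median, miR-143 lay at -0.81 and -1.01 in KO cells at 12 h and 24 h. In WT cells the same relative differences were -0.87 and -1.06. These relative differences were below 0 under each of 4 scalings, from -1.31 to -0.81 over both times in KO cells and from -1.07 to -0.71 in WT cells. A scaling factor shifts miR-143 and the median nearly alike, so this is little of a check. With the total gene signal the relative differences were -0.85 and 0.29 in KO cells at 12 h and 24 h, and 0.68 and 2.34 in WT cells. With normexp background correction they were -0.22 and -0.18 in KO cells, and -0.15 and 0.04 in WT cells. Signal moved with treatment as well, the scaling percentile being 203.5 to 570.1 units on tunicamycin arrays, against 555.7 to 791.2 on untreated arrays. Its part in the result was not tested.

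The summed level of the fibroblast and mesenchyme markers differed with treatment more in WT than in KO cells, a contrast that was not tested. The summed scaled level of those 6 miRNAs was 32.5 to 34.0 in KO cells at 12 h and 28.4 to 39.0 at 24 h, against 37.7 to 38.1 in untreated KO cells. One KO array at 24 h thus lay above both untreated KO arrays, unlike for miR-143. In WT cells it was 23.0 to 30.2 at 12 h and 29.6 to 35.6 at 24 h, against 48.6 to 48.8 in untreated WT cells. The sum is of unlogged levels, so miR-21, the brightest, weighs most. At 24 h miR-21, miR-22 and miR-214 differed by -0.01, 0.03 and -1.26 in KO cells, against -0.67, -0.37 and -1.44 in WT cells. miR-199a-5p and miR-125b-5p went the other way, at -1.43 and -0.33 in KO cells, against -1.07 and -0.11 in WT cells. miR-199a-3p was at -1.04 in both. The part of these markers in the miR-143 difference was not tested.

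A second question was whether the loss of ATF4 altered the level of miR-143. In untreated cells KO was 0.12 ± 0.21 higher than WT (interval -0.38 to 0.63, limma adjusted p = 0.743). Of all tested miRNAs, 32.4% passed in that comparison. At 12 h the KO value was 0.56 ± 0.21 above WT (interval 0.06 to 1.07, limma adjusted p = 0.105), where 24.8% passed. At 24 h it was 0.55 ± 0.21 above WT (interval 0.04 to 1.05, limma adjusted p = 0.152), where 15.2% passed. None of the 3 passed the threshold. The median of all tested miRNAs differed by -0.49 untreated, 0.05 at 12 h and 0 at 24 h. Relative to it miR-143 lay at 0.61, 0.51 and 0.55 in the same order. Over 4 scalings that relative value ran from 0.61 to 0.80, from 0.19 to 0.51 and from 0.33 to 0.55. With the total gene signal it was 0.66, -1.14 and -1.53. The KO value was above the WT value within each replicate number, by 0.05 and 0.20 untreated, 0.29 and 0.83 at 12 h, and 0.77 and 0.32 at 24 h. Each replicate number of a slide had its own scan date with both genotypes on it, so these are also the values within a scan date.

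The study's own interest was in responses that depend on ATF4, which is the KO response minus the WT response. For miR-143 that difference was 0.44 ± 0.30 at 12 h (interval -0.27 to 1.15, limma adjusted p = 0.408) and 0.43 ± 0.30 at 24 h (interval -0.29 to 1.14, limma adjusted p = 0.454). Over all tested miRNAs, 22.8% passed at 12 h and 8.28% at 24 h. The median miRNA differed by 0.49 at 12 h and 0.34 at 24 h, so that miR-143 lay at -0.05 and 0.08 relative to it. Over 4 scalings that relative value ran from -0.53 to -0.05 at 12 h and from -0.36 to 0.08 at 24 h. The median itself ran from -0.25 to 0.49 at 12 h and from -0.52 to 0.34 at 24 h under them. Under 13 alternatives the difference itself ran from -1.72 to 0.49 at 12 h and from -2.00 to 0.47 at 24 h. Its sign turned under 6 of them at 12 h and 5 at 24 h. The fall past the threshold in WT cells and the difference short of it in KO cells were hence not shown to differ. The intervals leave room for a difference of more than 1 log2 unit, and its direction was not settled.

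From 12 h to 24 h there was little further movement. At 24 h against 12 h miR-143 differed by -0.06 ± 0.21 in KO cells (limma adjusted p = 0.999) and by -0.05 ± 0.21 in WT cells (limma adjusted p = 1), and no miRNA passed in either comparison. The replicates disagreed in sign, at 0.20 and -0.33 in KO cells and -0.28 and 0.18 in WT cells.

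**Figure D4:**
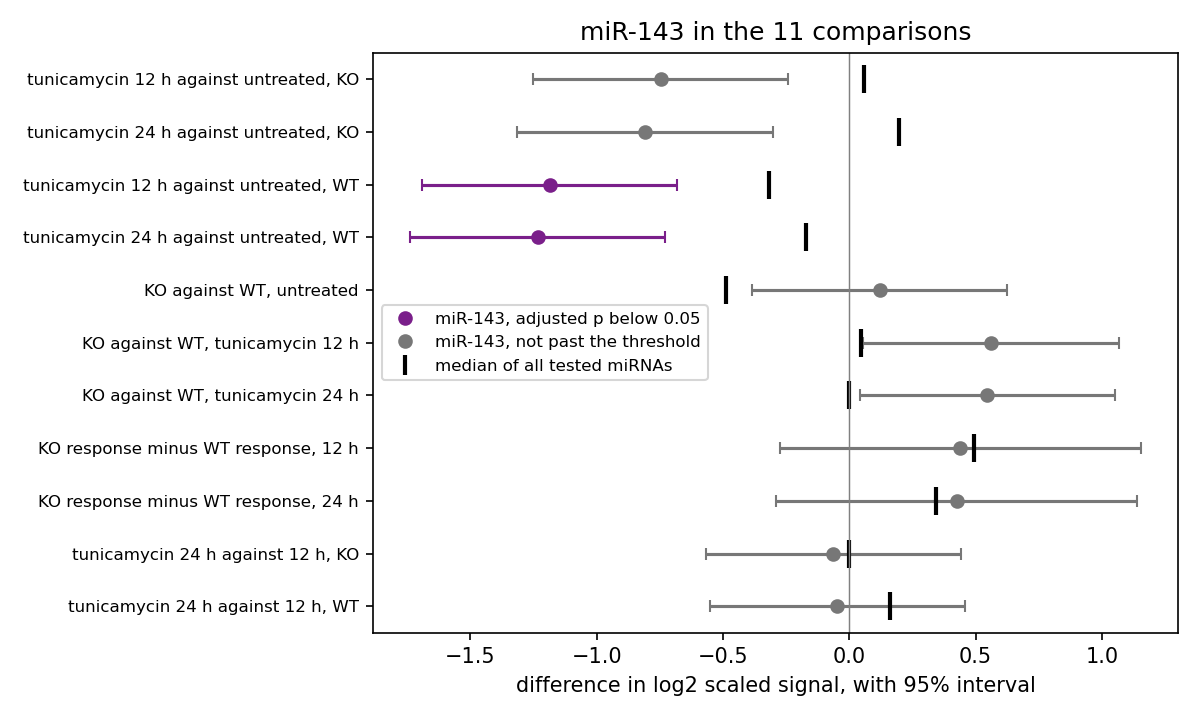
Difference of miR-143 in the 11 comparisons (log2 scaled signal, horizontal axis; points with 95% intervals, purple where the adjusted p is below 0.05), with black ticks for the median of all 145 tested miRNAs. The 2 WT comparisons of tunicamycin with untreated, at -1.19 and -1.23, are the purple ones.

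The comparisons share arrays: each untreated group serves both times of its genotype and the comparison of KO with WT. They are set side by side here as separate values, with no correlation between them.

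The deposited value table gave another picture of miR-143 after treatment. Its values equalled the log2 of the scanner software's total gene signal, given once per miRNA, to within 1.16e-06. In KO cells they were 5.80 and 6.00 untreated, 4.59 and 4.39 at 12 h, and 6.44 and 4.43 at 24 h. In WT cells they were 5.41 and 5.31 untreated, 4.05 and 7.30 at 12 h, and 6.88 and 6.93 at 24 h. KO at 24 h replicate 1, WT at 12 h replicate 2 and both WT arrays at 24 h thus stood above every untreated array.

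Those 4 arrays were the ones on which probe A_54_P2404 had 0 of 10 spots well above background. On the other 8 arrays the total gene signal of miR-143 equalled the sum of its 2 total probe signals, within a tolerance of 1%. On KO at 24 h replicate 1 the total gene signal was 86.7, against a sum of 10.95, which is 7.92 times higher. On WT at 12 h replicate 2 it was 157.7 against 15.6, or 10.1 times higher. On the WT arrays at 24 h it was 117.5 against 9.11 in replicate 1 and 121.9 against 10.9 in replicate 2, or 12.9 and 11.2 times higher. The probe sums of those 4 arrays were the lowest of the 12.

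**Figure D5:**
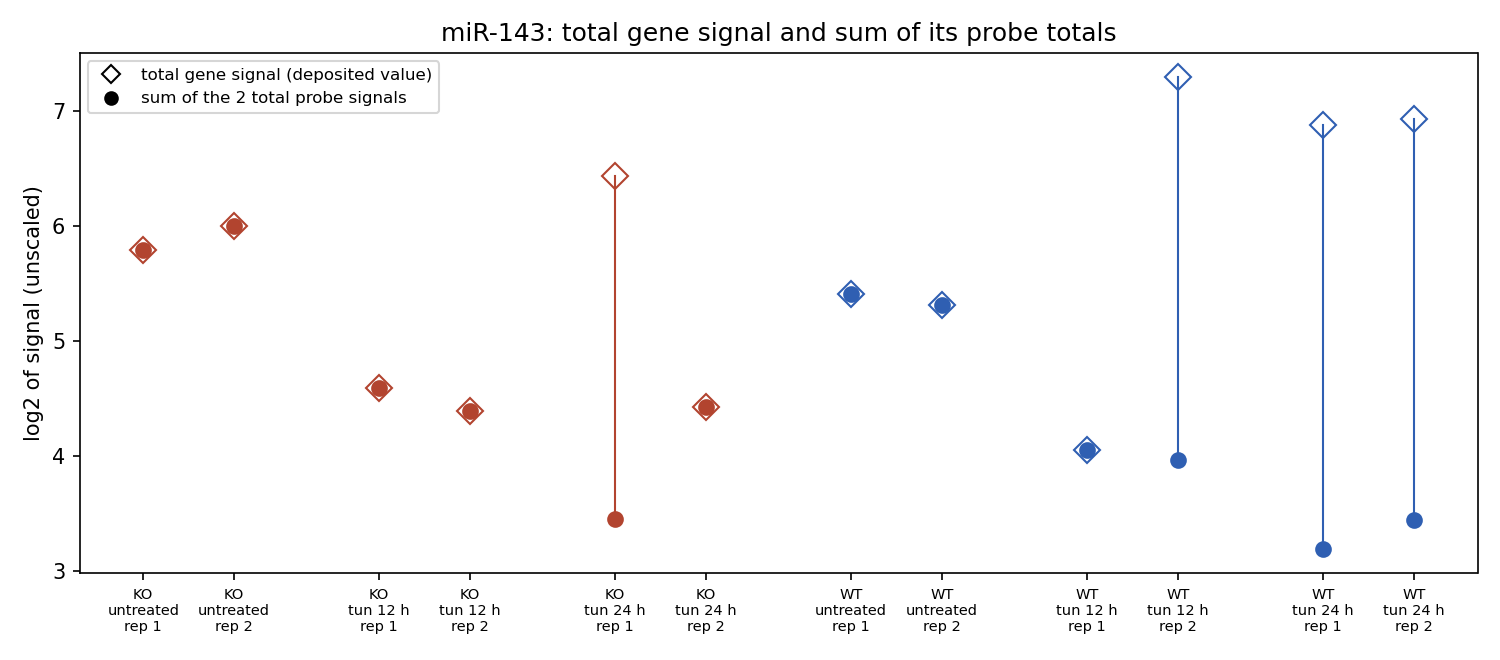
log2 of the unscaled miR-143 signal on each array (vertical axis), with diamonds for the total gene signal, which is the deposited value, and dots for the sum of the 2 total probe signals; KO in red, WT in blue. The symbols coincide on 8 arrays and part on 4 treated arrays.

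The gap was not peculiar to miR-143. Over all detected mouse miRNAs and arrays, 614 of 1835 total gene signals differed from the sum of their probes by more than 1%, and 547 of those were higher. Where a probe of the miRNA had no spot well above background, 91.2% of values differed, against 3.48% where every probe had such a spot. With the deposited values in the same limma fit, the difference of miR-143 between tunicamycin and untreated WT cells was 0.31 at 12 h (adjusted p = 1) and 1.54 at 24 h (adjusted p = 0.374), so its sign turned. With the sum of total probe signals instead, it was -1.19 at 12 h and -1.23 at 24 h, with limma adjusted p-values of 0.00669 and 0.00837. The levels reported above are sums of averaged processed signals of the spots, which gave the same 2 differences to 2 decimals. On each array the total probe signals of the 2 miR-143 probes were those averages times a common factor. Scaling largely removes such a factor, so the match is no separate check.

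Of 16 other miRNAs listed for smooth muscle and mesenchyme, 15 were tested, miR-204 being well above background on no array. In KO cells none passed against untreated at either time, with list medians of -0.20 at 12 h and -0.23 at 24 h. In WT cells at 12 h 5 were lower and 0 higher, with a list median of -0.53 beside -0.32 over all tested miRNAs, of which 30.3% were lower. They were miR-26a (-1.21 ± 0.15), the fibroblast-abundant miR-21 (-1.06 ± 0.19), miR-222 (-1.63 ± 0.35), miR-199a-3p (-1.27 ± 0.35) and miR-22 (-0.44 ± 0.14), with limma adjusted p-values from 0.00213 to 0.0479. The last of them is named after its values were seen. At 24 h 2 were lower in WT cells and 0 higher, namely miR-26a (-1.18 ± 0.15) and miR-222 (-1.44 ± 0.35), with a list median of -0.37 beside -0.17 over all, of which 15.2% were lower. Neither count stands far from the share over all.

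Between genotypes the same list moved both ways. In untreated cells 3 members were higher in KO and 7 lower, where 6.90% of all tested miRNAs were higher and 25.5% lower, and the list median of -0.56 lay near the -0.49 of all tested miRNAs. miR-199a-5p was 2.43 ± 0.37 higher in KO (limma adjusted p = 0.00522), while miR-222 was lower in KO, at -2.20 ± 0.35 (limma adjusted p = 0.00543), as was miR-31, at -0.86 ± 0.15 (limma adjusted p = 0.00853). At 12 h 4 were higher and 4 lower, beside 14.5% and 10.3% of all tested miRNAs. At 24 h 3 were higher and 4 lower, beside 7.59% each way over all. In the response difference 2 were higher and 1 lower at 12 h, beside 20.7% and 2.07% over all. Over 11 alternatives only 0 to 2 members passed there, so none gave the same count. At 24 h 1 was higher and 0 lower, beside 7.59% and 0.690% over all. The miRNA with the smallest p among them was miR-26a in both, at 1.27 ± 0.22 and 0.97 ± 0.22 (limma adjusted p = 0.00927 and 0.0430).

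The muscle miRNAs listed beside the pair for SRF and myocardin were absent from the tested set. Of miR-1, miR-133a, miR-133b, miR-206, miR-208a, miR-208b and miR-499, only miR-206 was well above background anywhere, on 2 arrays, 1 of KO at 24 h and 1 of WT at 12 h.

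Of 8 miRNAs linked to p53, 6 were tested. In KO cells 0 passed at 12 h and 1, miR-34c, was higher at 24 h (1.09 ± 0.20, limma adjusted p = 0.0410), where 1.38% of all tested miRNAs were higher. With the replicate number or the scan date as a block, 0 passed. In WT cells 5 were lower at 12 h and 4 at 24 h, with list medians of -1.15 and -0.95, beside 30.3% and 15.2% lower and medians of -0.32 and -0.17 over all tested miRNAs. The middle members at 12 h were miR-34a (-1.36 ± 0.41) and miR-16 (-0.94 ± 0.12), both well above background on all 12 arrays. miR-34b-5p and miR-34c were not well above background on any of the 4 treated WT arrays. In the response difference 4 members were higher in KO at 12 h and 3 at 24 h, with 0 lower at either time, beside 20.7% and 7.59% higher over all. For miR-143 the same differences, given above, did not pass.

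The miRNAs whose levels ran most like those of miR-143 were sought among the 82 that were well above background on all 12 arrays. The measure was Pearson's r of log2 scaled signal over the 12 arrays, which share 2 slides, the 6 groups and 1 scaling. The 5 highest were miR-28 (r = 0.93), miR-342-3p (0.83), miR-26a (0.82), miR-322 (0.80) and miR-199a-3p (0.79), and the median of the 82 was 0.12. As many as 31 of the 82 had an r above 0.5. For 4 of the 5, RefSeq (GRCm38.p6) gave a mature sequence, shown 5′ to 3′ with the seed, bases 2 to 8, in capitals, so that shared seeds can be looked for.
miR-342-3p: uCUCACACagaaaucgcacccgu
miR-26a: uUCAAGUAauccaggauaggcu
miR-322: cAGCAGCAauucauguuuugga
miR-199a-3p: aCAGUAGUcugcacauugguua
The 4 seeds all differed from each other, so these miRNAs belong to 4 seed families.

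Of these 5, miR-28 came nearest to miR-143 in shape, being lower after treatment in both genotypes. It differed by -0.49 at 12 h and -0.40 at 24 h in KO cells, and by -0.57 and -0.61 in WT cells, and none of the 4 differences passed (highest limma adjusted p = 0.403). miR-322, of the seed family of miR-15 and miR-16, showed a difference of 0.10 at 12 h and -0.23 at 24 h in KO cells (limma adjusted p = 0.907 and 0.642). In WT cells it fell by 2.01 and 1.73 (limma adjusted p = 0.00271 and 0.00816). miR-26a had the same form, at 0.06 and -0.20 in KO cells, against the falls in WT cells given above. miR-342-3p differed by 0.04 and -0.22 in KO cells and by -1.61 and -1.25 in WT cells, where the 12 h value passed (limma adjusted p = 0.0153) and the 24 h value did not (limma adjusted p = 0.0580). miR-199a-3p, in contrast, was lower after treatment in both genotypes, at -0.56 and -1.04 in KO cells and -1.27 and -1.04 in WT cells, with only the 12 h value in WT past the threshold (limma adjusted p = 0.0335).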

How the data were processed

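Total RNA was labelled with Cy3, hybridised to 1-colour Agilent miRNA arrays and read with Agilent Feature Extraction 10.7.1.1, per the submitters' processing notes and the labels' protocols. Per the file headers, the deposited spot values are intensity in arbitrary units, and the processed signal is background-subtracted and not scaled between arrays. The deposited table holds log2 values, which matched the log2 of Feature Extraction's total gene signal without scaling or centring and are blank where a miRNA was not detected. The other columns used, per the file headers, are flags.

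Processed signals of a probe's spots were averaged, without controls and outliers, and probe means of a miRNA were added up. To scale these sums, each array's 75th percentile was taken among the 82 miRNAs that stood well above background on every array. Scaled values under 0.0322 were set to that floor (-4.96 on the log2 scale) before taking log2. A probe was well above background when at least 50% of its spots were flagged so, and a miRNA when any probe was. The test covered the 145 mouse miRNAs that reached this mark on both arrays of some group. It was limma 3.58.1 in R 4.3.3, with lmFit for 6 group means and eBayes (6 residual degrees of freedom, prior 1.03), with Benjamini-Hochberg adjustment over all 145 and a threshold of 0.05. The fit was run on simulated data with independent noise and the same SD for a miRNA in all groups. Those data lacked the unequal spread of the groups and the shared scan dates found here. The run therefore checks the code and not the error rate on these arrays.

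The members and lists were chosen with earlier results of these data known. Beside the members, the text names the 5 miRNAs most correlated with miR-143, the star strands, and up to 4 list members per comparison by p. miR-145 was at the floor on every array, so the 11 planned tests of it and the 2 exact permutation tests of the ratio of miR-143 to miR-145 could not be made. The normexp alternative used median signals. Alternatives covered background correction, measure, scaling, filter, block and leaving out each array. Within a slide a replicate number shares a scan date, and deviations of same-numbered arrays correlated at 0.68 to 0.95 over the 7 pairs of groups on 1 slide, against -0.54 to -0.24 over the 8 pairs across slides. The numbers thus paired arrays within a slide and not across slides. RefSeq's tables supplied sequences and gene names.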

Additional observations from a re-analysis of the deposited data

How the results depend on the processing

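Each of the 11 miR-143 comparisons was recomputed under 13 alternatives and without each of 12 arrays. Of the 143 values under alternatives, 106 kept direction and side of the threshold, as did 120 of the 132 with an array left out. In part of both counts the direction could not change. The blocks and the lack of a filter leave every estimate as it was, as does leaving out an array outside the comparison. The sum of total probe signals and either probe alone were chosen after seeing the data. The causes of the changes below were not tested, beyond the gap between gene and probe totals described above. With the total gene signal, tunicamycin against untreated gave 0.58 in KO at 24 h, and 0.53 and 2.29 in WT at 12 h and 24 h. KO against WT gave -1.11 at 12 h and -1.53 at 24 h, the response difference -1.30 and -1.72, and 24 h against 12 h 1.35 in KO and 1.76 in WT. With the deposited table, the WT differences were 0.31 and 1.54, KO against WT -1.18 and -1.47, the response difference -1.72 and -2.00, and 24 h against 12 h 0.94 in KO and 1.23 in WT. With normexp, which met a local background of 172397 units on untreated KO replicate 1 and 13725 on WT at 24 h replicate 2, the WT differences were -0.14 and 0.74, KO against WT at 24 h -0.55, the response difference -0.73 and -1.34, and 24 h against 12 h 0.27 in KO and 0.89 in WT. With the 75th percentile over all mouse miRNAs, the WT differences of -0.94 and -1.01 no longer passed and the response difference was -0.56 and -0.63. With quantile normalization, the WT differences of -0.93 and -1.12 no longer passed and the response difference was -0.53 and -0.48. Without scaling, the KO differences of -1.44 and -1.95 passed, and the response difference at 12 h was -0.060. With no filter on dim miRNAs, the 24 h difference in WT stayed at -1.23 but no longer passed (limma adjusted p = 0.0545). With A_54_P2405 alone, 24 h against 12 h in WT was 0.013. A filter to miRNAs well above background on all arrays leaves miR-143 out and gave no value.

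Leaving out 1 array, tunicamycin against untreated ran from -0.75 to -0.74 in KO at 12 h, from -1.07 to -0.55 in KO at 24 h, from -1.46 to -0.92 in WT at 12 h and from -1.30 to -1.17 in WT at 24 h. KO against WT ran from 0.29 to 0.83 at 12 h and from 0.29 to 0.81 at 24 h, and 24 h against 12 h from -0.32 to 0.20 in KO and from -0.32 to 0.22 in WT. An array left alone in its group was assumed to vary like the others. The KO difference at 12 h passed without either KO array at 24 h (limma adjusted p = 0.0488), and that at 24 h without KO at 24 h replicate 1 (0.0139). KO against WT at 12 h passed without WT at 12 h replicate 1 (0.0453) or either KO array at 24 h (0.0489), and at 24 h without KO at 24 h replicate 2 (0.0325). Over the 13 alternatives the limma adjusted p of the WT difference ran from 0.00538 to 1 at 12 h and from 0.00199 to 0.951 at 24 h.

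The replicate block left every estimate as it was, for example -1.19 for WT at 12 h (limma adjusted p = 0.00538) and -0.75 for KO at 12 h (limma adjusted p = 0.0876), and changed no call of miR-143. The scan date within slide as a block, which is the pairing the arrays bear out, changed none either. Over all tested miRNAs the scan date took the calls of KO against WT at 24 h to 14, against 22 without it, and the replicate block took those of KO at 12 h to 2, against 1. Either block ended the miR-34c call in KO at 24 h, and no other list count moved by more than 1.5 times under them.

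List counts depended on the scaling and measure. For smooth muscle and mesenchyme in WT at 12 h, 0 to 6 members passed over 11 alternatives and 2 to 10 without 1 array; for the untreated genotype comparison 0 to 11 and 1 to 11. For the p53-linked list these were 0 to 5 and 3 to 5 in WT at 12 h, and 0 to 2 and 0 to 3 in KO at 24 h. The correlations with miR-143 turned negative with the total gene signal (miR-28 -0.20, miR-342-3p -0.22, miR-26a -0.47, miR-322 -0.36, miR-199a-3p -0.26) and with the deposited table (-0.26, -0.31, -0.44, -0.34 and -0.25 in the same order), and for miR-199a-3p with normexp (-0.26). Signal over background limits what can be said of miR-145 in all groups and of miR-143 in treated cells, mainly WT at both times and KO at 24 h.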
